A study of Rattus norvegicus with 16 samples.

Results

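The genes described here encode enzymes that build heme in the liver and the reductases that turn its breakdown product, biliverdin, into bilirubin: Alas1, Alad, Uros, Urod, Cpox, Ppox, Fech, Blvra and Blvrb. They were picked by symbol, and all 9 were found among the 22587 genes of the table of liver transcripts. Heme synthesis starts in the mitochondrion, where Alas1 joins glycine and succinyl-CoA, continues in the cytosol through enzymes that include Alad, Uros and Urod, and returns to the mitochondrion for Cpox, Ppox and Fech, which inserts the iron. Alas1 sets the pace of the pathway in the liver, where much of the heme goes into cytochrome P450 enzymes, and heme itself represses it. Heme oxygenase (Hmox1 and Hmox2) opens the heme ring to give biliverdin, which Blvra reduces to bilirubin for conjugation and export into bile. Blvrb is also known as a flavin reductase.

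The study measured mRNA-selected RNA from the livers of male rats of the strain labelled Wistar-Wyoto, aged 13 weeks, and asked what adrenal hormones contribute to the liver's response to an acute exposure to ozone, an irritant gas. SHAM rats had sham surgery, and ADREX rats had both adrenal glands removed, which takes away the source of corticosterone and of adrenal adrenaline. Rats of each surgery breathed air or ozone at 0.8 ppm for 4 hours, so there were 4 groups of 4 libraries: SHAM air (libraries 1 to 4), SHAM ozone (17 to 20), ADREX air (65 to 68) and ADREX ozone (81 to 84). The groups were taken from the sample titles. The treatment label reads ozone in each of the 8 ADREX libraries, even in the 4 titled air, so every comparison that uses ADREX air rests on the titles. The labels do not say whether each library came from its own rat, and the p-values measure the spread between these libraries.

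Reads in the 16 libraries numbered from 8372891 to 14096246. The hepatocyte markers (8 of 8 in the table) summed to 104260.0 to 224300.0 RPM (reads scaled to a library total of 1000000), so the libraries are liver by this check, and no listed marker of another cell type that is in the table was at 0 in all libraries. Markers of neural tissue, which a liver sample should hardly hold, summed to 47.4 to 3066 RPM in SHAM and 289 to 5076 RPM in ADREX. ADREX ozone 82, SHAM ozone 18 and ADREX ozone 81 were the richest in them, and calls lost without these 3 libraries are named as such. All values below are the deposited normalized counts unless another unit is named. A change is a difference of log2(normalized count + 1) with its standard error (SE), tested with limma over 12791 genes, and a gene passed when its p adjusted over all of them by Benjamini-Hochberg was under 0.05.

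The 250 bases before the start of 3 of the genes are shown because Blvra was the 1 gene of the 9 that passed, and because Alad and Urod rose and fell together between libraries. The sequences are RefSeq's on the rat build GRCr8, matched by symbol, and read 5′ to 3′ on the gene's own strand. Capitals mark matches on either strand to the motifs searched: the glucocorticoid receptor half-site AGAACA, the nuclear receptor half-site AGGTCA, the antioxidant response element core TGACNNNGC, the GC box GGGCGG and the CCAAT box CCAAT.
Blvra, GRCr8 chr3:134802660-134802909, plus strand: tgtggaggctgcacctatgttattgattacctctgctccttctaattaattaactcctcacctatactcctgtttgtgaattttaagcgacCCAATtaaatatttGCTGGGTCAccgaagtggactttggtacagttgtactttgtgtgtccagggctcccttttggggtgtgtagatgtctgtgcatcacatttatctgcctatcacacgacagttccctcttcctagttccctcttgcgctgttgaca
Alad, GRCr8 chr5:80987902-80988151, minus strand: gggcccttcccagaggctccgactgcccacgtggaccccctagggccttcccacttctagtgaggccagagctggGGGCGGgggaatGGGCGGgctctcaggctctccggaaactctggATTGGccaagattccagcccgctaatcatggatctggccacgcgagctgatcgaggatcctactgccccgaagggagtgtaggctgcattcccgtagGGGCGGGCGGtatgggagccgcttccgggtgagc
Urod, GRCr8 chr5:135705381-135705630, minus strand: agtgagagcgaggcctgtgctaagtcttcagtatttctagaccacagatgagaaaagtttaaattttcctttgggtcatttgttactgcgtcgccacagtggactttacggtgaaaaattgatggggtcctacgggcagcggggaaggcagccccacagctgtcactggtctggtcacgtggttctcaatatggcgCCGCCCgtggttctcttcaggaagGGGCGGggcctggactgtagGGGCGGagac

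The GC content of these stretches was 44.4% in Blvra, 65.6% in Alad and 54.4% in Urod. The table of promoters held 8 of the 9 genes. A GC box stood in 4 of the 8 (Alad 4 matches, of which the last pair overlap, Urod 3, Fech 3 and Blvrb 5), against 30.5% of all 33469 promoters of the same length. The antioxidant response element core stood in Blvra alone, at -145 to -137 from the start on the reverse strand, and in 10.1% of all promoters. A CCAAT box was found in Alad, Ppox and Blvra and in 34% of all promoters. Neither the glucocorticoid receptor half-site, found in 17.5% of all promoters, nor the nuclear receptor half-site, found in 14.1%, was present in these letters for any of the 8. A match describes the letters only.

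**Figure D1:**
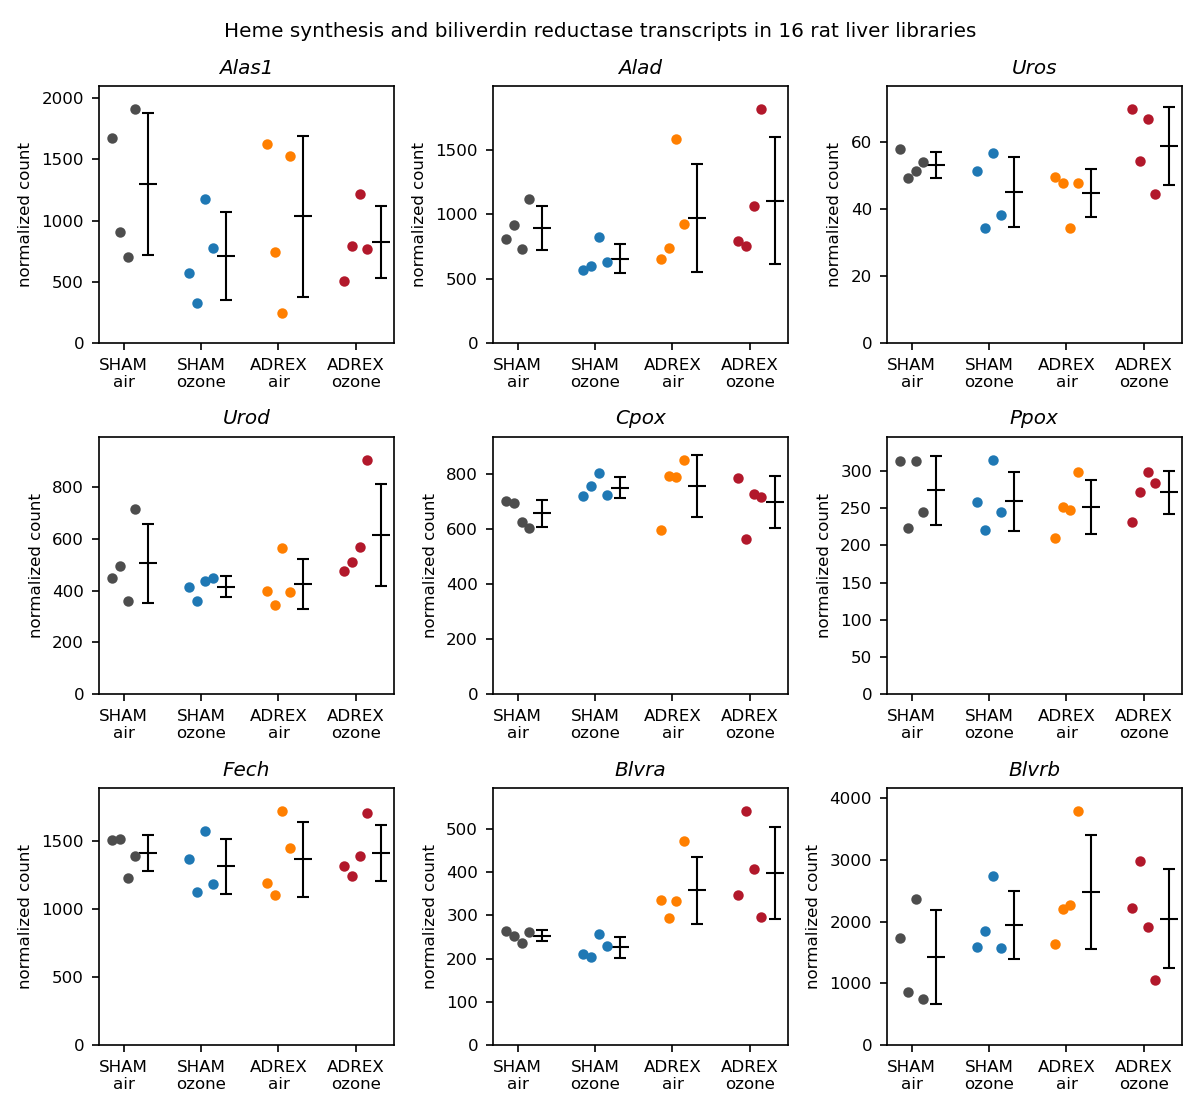
Normalized counts (y axis, from 0) of the 9 genes in each of the 16 libraries, by group (x axis). Points are libraries, and the bar with caps is the mean ± SD of 4 libraries. All 8 ADREX libraries lie above all 8 SHAM libraries for Blvra, at 293 or more against 265 or less, while Alas1 spreads widely within groups.

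Across the 9 genes, 1 of 9 passed in the comparison of ADREX with SHAM under ozone, where 12.5% of all genes passed, and 0 of 9 passed in the other planned comparisons. Those were the ozone effect in SHAM (1.58% of all genes passed), the ozone effect in ADREX (0.125%), the difference of the 2 ozone effects (0.109%) and ADREX against SHAM in air (3.53%). With limma at an unadjusted p under 0.05 the counts were 0, 1, 1 and 2 of 9 in these comparisons, against 18.4%, 17.8%, 12.9% and 20.2% of all genes, and edgeR and DESeq2 also passed 0 of 9 in each. Under ozone, 3 of 9 had an unadjusted p under 0.05, against 31.2% of all genes. The counts of the 9 were thus near or below the background in every comparison, and 1 gene, Blvra, passed. The background moved too: with those 3 neural-rich libraries left out, 479 of the 12791 genes passed under ozone in place of 1601, 107 in place of 202 for ozone in SHAM and 1 in place of 16 for ozone in ADREX, and 0 of the 9 passed in each. The air and ozone libraries did not overlap for 1 of 9 in SHAM (Cpox) and 0 of 9 in ADREX, against 11.1% and 9.97% of all genes. The median change of the 9 was -0.17 for ozone in SHAM (all genes 0.01), 0.11 for ozone in ADREX (all genes 0.06), -0.06 for ADREX in air (all genes 0.04) and 0.29 for ADREX under ozone (all genes 0.11). These comparisons share libraries in pairs, so they are not independent of each other.

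**Figure D2:**
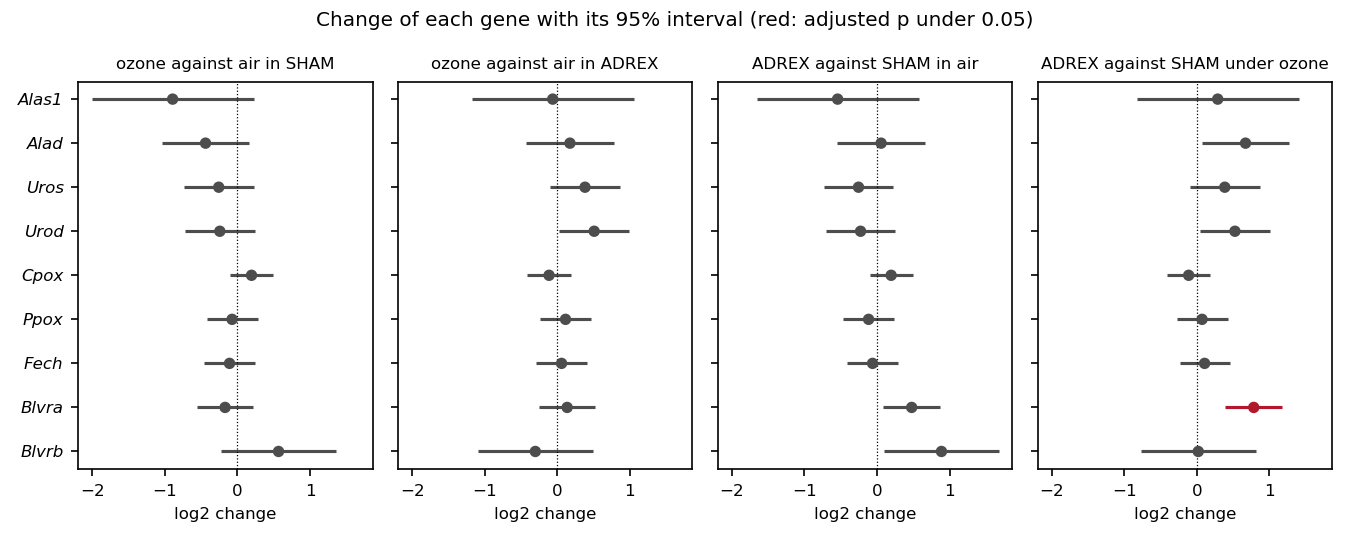
Change of each gene (x axis, log2 difference; points) with its 95% confidence interval (lines) in 4 comparisons, from the limma model over 16 libraries. Blvra under ozone, at 0.78 with an interval from 0.39 to 1.18, is the 1 value that passed (red), and the intervals of Alas1 and Blvrb are the widest.

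Alas1, the enzyme of the first step, varied more within groups than any other of the 9. Its counts were 1674, 910.5, 701 and 1908 in SHAM air, and 575, 327, 1173 and 774 in SHAM ozone. In ADREX air they were 1624, 745, 244 and 1526, and in ADREX ozone 510.1, 794, 1217 and 770.0. The groups overlapped in every comparison: ADREX air alone ran from 244 in library 67 to 1624 in library 65. Means were 1299 ± 583, 712 ± 358, 1035 ± 658 and 823 ± 292 (SD, n = 4 each, in the same order). Its spread within groups was 0.86 on the log2 scale, larger than that of 90.7% of the genes tested, whose median was 0.37. The ozone effect in SHAM was -0.89 (SE 0.53, 95% interval -2.01 to 0.22, adjusted p = 0.373 by limma), an interval that holds both a 4-fold drop and no change. In ADREX the ozone effect was -0.06 (SE 0.53, interval -1.18 to 1.05), and the difference between the effects was 0.83 (SE 0.75, adjusted p = 0.659 by limma). For ADREX against SHAM the change was -0.54 in air (SE 0.53) and 0.29 under ozone (SE 0.53), with adjusted p = 0.575 and 0.748 by limma.

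The genes whose levels followed Alas1 most closely over the 16 libraries were Med8, a subunit of the Mediator complex (Pearson r = 0.84), Arhgef7, a guanine nucleotide exchange factor (0.78), Nr0b2 (0.77), Zpbp2 (0.76) and Elk3, an ETS family transcription factor (0.76). Nr0b2 encodes SHP, a nuclear receptor that represses bile acid synthesis. These 5 were the top of a ranking of all genes tested, and the points share 4 groups and each library's depth. Without the 2 libraries farthest from the Alas1 median the values were 0.70, 0.67, 0.67, 0.73 and 0.74. In ADREX air 67, where Alas1 had its lowest count, Nr0b2 was at 83.4, against 177 to 2777 in the other 15 libraries.

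Alad, which condenses 2 molecules of aminolevulinate into porphobilinogen and is the enzyme that lead inhibits, had counts of 808, 918, 728 and 1118 in SHAM air and 571, 596, 826 and 633 in SHAM ozone. It had 653, 739, 1582 and 922 in ADREX air and 791, 750.0, 1062 and 1815 in ADREX ozone. Library 67 of ADREX air and library 84 of ADREX ozone stood high, and all groups overlapped. ADREX was 0.67 above SHAM under ozone (SE 0.29, interval 0.07 to 1.27), with an unadjusted p of 0.0315 and an adjusted p of 0.124 by limma. With array quality weights in limma, which count deviating libraries for less, that change was 0.62 and passed (adjusted p = 0.0444), and over all alternatives the adjusted p ran from 0.0444 to 0.301. Ozone changed Alad by -0.44 in SHAM (SE 0.29, adjusted p = 0.417 by limma) and by 0.17 in ADREX (SE 0.29, adjusted p = 0.797 by limma), and ADREX differed from SHAM in air by 0.06 (SE 0.29).

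Uros, which closes the ring of uroporphyrinogen III, was the least abundant of the 9, with 23 to 61 reads a library, so it carries the largest counting error of the 9. Group means were 53.2 ± 3.82 in SHAM air, 45.1 ± 10.6 in SHAM ozone, 44.8 ± 7.05 for ADREX with air and 58.9 ± 11.6 for ADREX with ozone (SD, n = 4). Its counts were 58.0, 49.2, 51.3 and 54.2 in SHAM air against 51.3, 34.3, 56.6 and 38.3 in SHAM ozone. They were 49.4, 47.7, 34.3 and 47.7 in ADREX air against 69.8, 54.5, 66.9 and 44.6 in ADREX ozone. The groups overlapped in all comparisons, the widest gap of means being that between ADREX ozone and ADREX air at 0.38 (SE 0.23, adjusted p = 0.398 by limma) and that between ADREX and SHAM under ozone at 0.39 (SE 0.23, adjusted p = 0.256 by limma).

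Urod, which removes carboxyl groups from the same ring and whose loss causes porphyria cutanea tarda in humans, was higher in every ADREX ozone library than in any SHAM ozone library. Counts were 477, 512, 568 and 904 in ADREX ozone and 414, 358, 437 and 449.8 in SHAM ozone. Such a lack of overlap was seen for 20.5% of all genes in this comparison, and for 2 of the 9, Urod and Blvra. The change was 0.53 (SE 0.23, interval 0.04 to 1.01) with an unadjusted p of 0.0342, and did not pass (adjusted p = 0.13 by limma). In air the counts were 448, 495, 361 and 716 in SHAM and 400.1, 343, 563 and 395 in ADREX, which overlapped, with a change of -0.23 (SE 0.23). Ozone changed Urod by -0.24 in SHAM (SE 0.23) and 0.51 in ADREX (SE 0.23), with adjusted p = 0.579 and 0.259 by limma. The difference between these ozone effects was 0.75 (SE 0.32, interval 0.07 to 1.43) and did not pass (adjusted p = 0.338 by limma).

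The last 3 enzymes of the pathway varied least. Cpox, coproporphyrinogen oxidase, had a spread within groups of 0.17, smaller than in all but 3.36% of the genes tested. Its 4 SHAM ozone counts (719, 756, 802 and 721) lay above the 4 SHAM air counts (699, 695, 625 and 604). The change was 0.19 (SE 0.14, interval -0.10 to 0.49) and did not pass (adjusted p = 0.473 by limma). Cpox counts were 594, 792, 788 and 849 in ADREX air and 783, 565, 725 and 717 in ADREX ozone, and overlapped.

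Ppox, protoporphyrinogen oxidase, lay between 209 and 315 in all 16 libraries, with group means of 274 ± 46.9, 259 ± 40.0, 252 ± 36.4 and 272 ± 28.7 (SD, n = 4, in the order SHAM air, SHAM ozone, ADREX air, ADREX ozone). Its changes ran from -0.12 (ADREX in air, SE 0.17) to 0.11 (ozone in ADREX, SE 0.17). Fech, ferrochelatase, lay between 1106 and 1720.0, with means of 1411 ± 133, 1315 ± 203, 1368 ± 276 and 1415 ± 204 in the same order. Its changes ran from -0.11 (ozone in SHAM, SE 0.16, interval -0.46 to 0.24) to 0.11 (ADREX under ozone, SE 0.16, interval -0.24 to 0.45). For these genes the intervals reach no further than 0.49 in either direction in the 4 comparisons of 2 groups, which bounds the change at well below a doubling without showing that there was none.

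Blvra, biliverdin reductase A, the enzyme that makes bilirubin, was higher after adrenalectomy. Counts were 265, 251, 236 and 261 in SHAM air and 211, 203, 258 and 230.1 in SHAM ozone. They were 335, 293, 334 and 471 in ADREX air and 348, 540.5, 407 and 295 in ADREX ozone. All 8 ADREX libraries stood above all 8 SHAM libraries, with medians of 342 and 244 and the nearest values at 293 and 265. Means were 253 ± 12.7, 226 ± 24.3, 358 ± 77.5 and 398 ± 106 (SD, n = 4, same order of groups), from 130 to 516 reads a library.

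Under ozone Blvra rose 1.72-fold in ADREX against SHAM (log2 change 0.78, SE 0.18, interval 0.39 to 1.18, adjusted p = 0.0125 by limma). In air the change was 0.48 (SE 0.18, interval 0.09 to 0.87), the 2 groups did not overlap, as for 9.26% of all genes, and the change did not pass (unadjusted p = 0.0196, adjusted p = 0.166 by limma). The difference between these surgery effects was 0.31 (SE 0.26, interval -0.25 to 0.86, adjusted p = 0.635 by limma), so a stronger effect under ozone was not shown. Averaged over air and ozone, a comparison added after the values of Blvra were seen, the rise was 1.55-fold (log2 change 0.63, SE 0.13, interval 0.35 to 0.91, adjusted p = 0.00403 by limma). There 1 of the 9 genes passed, against 18.6% of all genes, and a complete separation of 8 from 8 libraries with ADREX higher was found for 0.962% of all genes. Ozone itself changed Blvra by -0.17 in SHAM and 0.14 in ADREX (SE 0.18 each), with adjusted p = 0.636 and 0.748 by limma.

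Kupffer, neural and cholangiocyte marker sums reached higher in ADREX than in SHAM of the same exposure, and their part in the Blvra result was not tested. In ADREX air, library 68 had a Blvra count of 471 with 725 RPM of Kupffer markers, and library 65 had 335 with 1278 RPM. Neural markers in libraries 68 and 65 summed to 1272 and 529 RPM. The library with the highest neural sum had the highest Blvra count in both ADREX groups. In both SHAM groups it had the lowest. Kupffer cell and macrophage markers (11 of 11 in the table, none at 0 in all libraries) summed to 487 to 719 RPM in SHAM air and 546 to 781 RPM in SHAM ozone, and for ADREX to 677 to 1278 RPM with air and 651 to 1376 RPM with ozone. The ADREX sums were 1278, 1125, 677 and 725 RPM in libraries 65 to 68 and 1376, 921, 868 and 651 RPM in libraries 81 to 84. Neural markers (25 of 25 in the table) summed to 47.4 to 903 RPM in SHAM air and 83.3 to 3066 RPM in SHAM ozone, and for ADREX to 289 to 1272 RPM with air and 887 to 5076 RPM with ozone. Cholangiocyte markers (6 of 6) summed to 5.14 to 10.6, 11.6 to 19.6, 16.2 to 23.9 and 14.4 to 20.5 RPM in the same order. Sinusoidal endothelial sums had medians of 469, 354, 397 and 329 RPM, and stellate cell sums 153, 122, 144 and 115 RPM, in that order. When the 3 libraries with the highest neural sums were left out, the Blvra change under ozone was 0.57 and did not pass (adjusted p = 0.16 by limma), from 2 ADREX and 3 SHAM libraries, while with the neural marker sum as a covariate it was 0.71 and passed (adjusted p = 0.0403 by limma). The change passed in each of the 16 fits that left out 1 library, at 0.62 to 0.92. In bulk tissue, more cells of a type and more RNA per cell cannot be told apart.

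**Figure D3:**
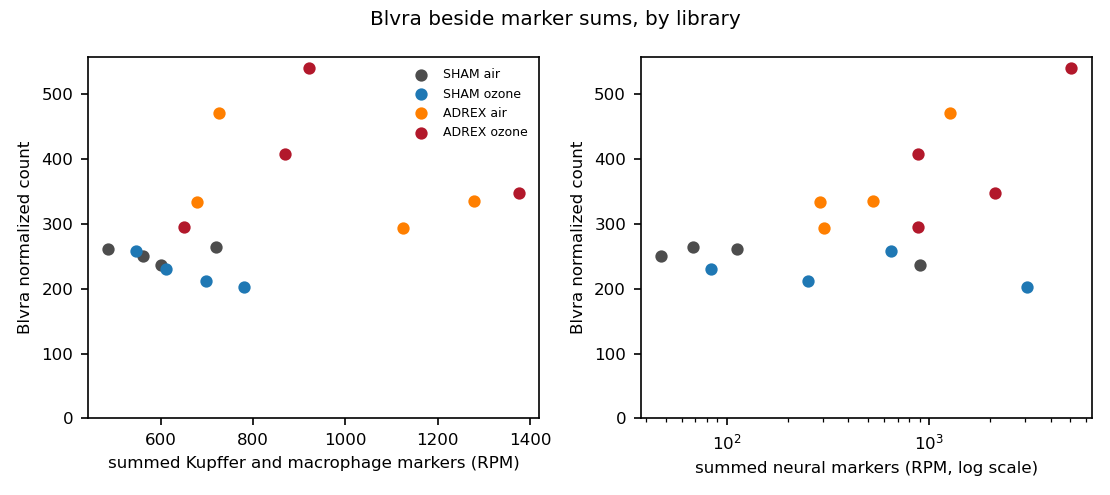
Blvra normalized count (y axis, from 0) against the summed Kupffer and macrophage markers (left, RPM) and the summed neural markers (right, RPM, log scale) in 16 libraries, coloured by group. SHAM ozone 18 had 3066 RPM of neural markers and the lowest Blvra count, 203, and ADREX ozone 82 had 5076 RPM and the highest, 540.5.

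Blvrb, the other reductase, did not follow Blvra across groups. Its counts were 1732, 858, 2364 and 752 in SHAM air, and 1594, 1848, 2742 and 1572 in SHAM ozone. The ADREX counts were 1630.0, 2208, 2276 and 3786 with air and 2224, 2986, 1917 and 1054 with ozone. All groups overlapped, and library 68 of ADREX air was the highest. In air ADREX was 0.89 above SHAM (SE 0.37, interval 0.10 to 1.68), with an unadjusted p of 0.03 and an adjusted p of 0.202 by limma. Under ozone the difference was 0.02 (SE 0.37, interval -0.77 to 0.81), with a sign that turned under other scaling (-0.08 with TMM, a scaling by the trimmed mean of gene ratios). Ozone changed Blvrb by 0.57 in SHAM and -0.30 in ADREX (SE 0.37 each), and the difference between these was -0.87 (SE 0.53, interval -1.99 to 0.25, adjusted p = 0.492 by limma). Its spread within groups was 0.60, larger than that of 81% of the genes tested, and within groups its level went with the neural marker sum (r = 0.59 over 16 libraries), against 0.24 for Blvra.

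Within groups, some of the heme enzymes varied together. After each gene's group means were taken away, Alad went with Urod (r = 0.86 over 16 libraries) and with Fech (0.82), and Urod went with Fech (0.66). Without the 2 libraries farthest from the median of the first-named gene these values were 0.73, 0.68 and 0.75. Alas1 followed none of these enzymes, with r = -0.17 against Alad, 0.07 against Urod and -0.03 against Fech. Without the 2 libraries farthest from the Alas1 median those became 0.41, 0.45 and 0.51, so the lack of relation rests on those libraries. Urod and Blvrb ran in opposite directions (r = -0.66, and -0.41 without 2 libraries). Within groups the neural marker sum went with Urod at r = -0.49 and with Blvrb at 0.59. Its part in the relation of Urod and Blvrb was not tested. Blvra and Blvrb went together at 0.56 (0.33 without 2). Ppox went with Blvrb at 0.62 (0.54 without 2), and Alas1 with Uros at 0.59 (0.44 without 2). The points share each library's scaling and cell makeup, and 36 pairs were looked at.

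**Figure D4:**
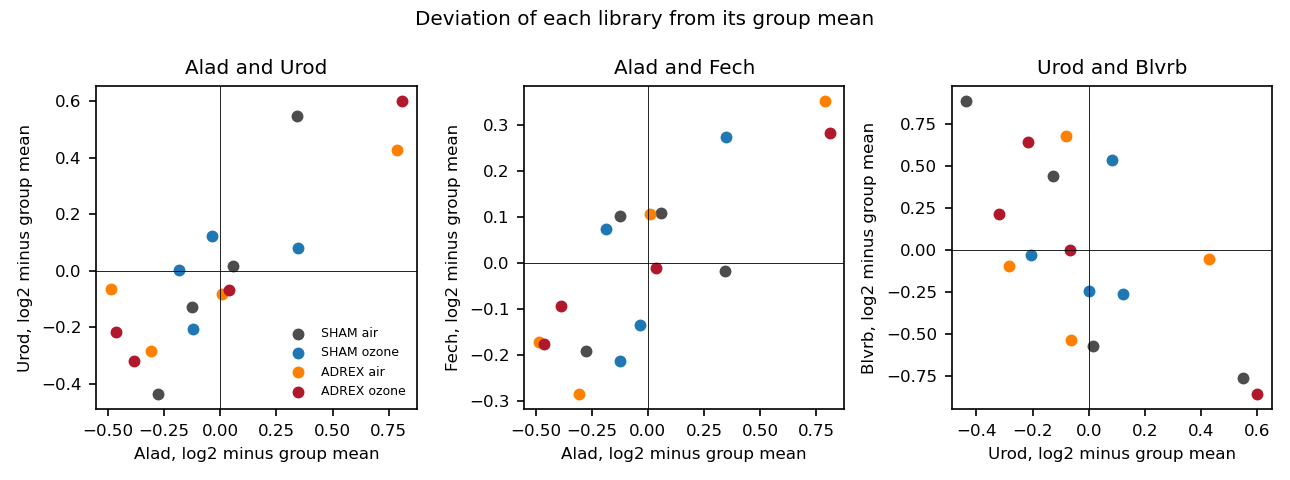
Deviation of each library from its group mean (both axes, log2 units) for Alad against Urod, Alad against Fech, and Urod against Blvrb; each point is 1 of 16 libraries, coloured by group. The first 2 panels rise (r = 0.86 and 0.82) with ADREX air 67 and ADREX ozone 84 at the upper right, and the third falls (r = -0.66).

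Other genes of the pathway were taken from 3 lists. Of 31 genes of heme supply and regulation (30 tested), 0 passed for ozone in SHAM (limma, 6 at an unadjusted p under 0.05), 0 for ozone in ADREX (4) and 0 for ADREX in air (7), near the 18.4%, 17.8% and 20.2% of all genes with such a p. In ADREX against SHAM under ozone 2 were higher and 4 were lower, where 12.5% of all genes passed. The lower genes included Bach1, the repressor that releases DNA when it binds heme (log2 change -1.76, SE 0.30, adjusted p = 0.00209 by limma). Foxo1, a transcription factor that cooperates in the induction of Alas1 in fasting, was lower too (-1.93, SE 0.36, adjusted p = 0.00332 by limma). Both passed in all alternatives. Means in SHAM air, SHAM ozone, ADREX air and ADREX ozone were 503, 969, 423 and 265 for Bach1 and 629, 1214, 370 and 303 for Foxo1. Both were thus highest in SHAM ozone. Ozone changed them by 0.85 and 0.91 in SHAM, which did not pass (adjusted p = 0.166 and 0.196 by limma). Nr1i2, the xenobiotic receptor PXR, and Clpx, a mitochondrial unfoldase that acts on the first enzyme, were at -0.95 and -1.10 (adjusted p = 0.0281 and 0.0475 by limma). Slc48a1, a heme transporter, and Suclg1, a subunit of the enzyme that interconverts succinyl-CoA and succinate, were at 0.67 and 0.50 (adjusted p = 0.0467 and 0.0173 by limma). These 4 calls are less firm. Suclg1 missed the threshold without SHAM ozone 17 (0.0515), with TMM (0.0672) and with edgeR (0.0644). Nr1i2 missed it without any of SHAM ozone 17, 19 and 20 or ADREX ozone 81, 82 and 83 (adjusted p 0.052 to 0.0923 by limma). Clpx missed it without any of SHAM air 1 and 4, SHAM ozone 17, 19 and 20, ADREX air 65 and 68 or ADREX ozone 81, 82 and 84 (0.0509 to 0.138). Slc48a1 missed it without any of SHAM air 1 and 4, SHAM ozone 17, 19 and 20, ADREX air 65 or ADREX ozone 81 to 84 (0.0517 to 0.142). When the 3 libraries with the highest neural sums were left out together, Nr1i2 was at 0.179, Clpx at 0.157 and Slc48a1 at 0.156 (adjusted p by limma). With the neural sum as a covariate they were at 0.0923, 0.106 and 0.169, the change of Slc48a1 being 0.38 in place of 0.67, and Slc48a1 also missed the threshold with TMM (0.0596) and with edgeR (0.0659). With no filter on low values Clpx was at 0.0633 and Slc48a1 at 0.0613 (adjusted p by limma).

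Hmox1, the inducible heme oxygenase that supplies Blvra with biliverdin, separated the surgeries as Blvra did. Its counts were 369, 207, 319 and 363 in SHAM air, and 331, 335, 291 and 254 in SHAM ozone. The ADREX counts were 446, 506, 1587 and 485 with air and 479, 424, 508 and 423 with ozone. All 8 ADREX libraries lay above all 8 SHAM libraries, as for 0.962% of all genes, with library 67 of ADREX air far above the rest. Hmox1 was picked for this description after its values were seen. The change was 1.07 in air (SE 0.31, adjusted p = 0.0699 by limma) and 0.60 under ozone (SE 0.31, adjusted p = 0.199 by limma), and neither passed. Averaged over the exposures, chosen after its values were seen, it was 0.84 (SE 0.22, adjusted p = 0.0166 by limma), in a comparison where 4 genes of its list rose and 5 fell of 30 tested and 18.6% of all genes passed. Without ADREX air 67 that was 0.62 (adjusted p = 0.00412 by limma), 0.87 when the 3 libraries with the highest neural sums were left out (0.068), and 0.84 with the neural sum as a covariate (0.0655). Macrophages are known to express Hmox1 too, and the marker sums given beside Blvra apply here, with their part not tested.

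Of 12 genes of bilirubin conjugation and transport (10 tested), 2 fell in ADREX in air and the same 2 fell under ozone, where 3.53% and 12.5% of all genes passed: Abcc2 and Slco1b2. Ugt1a1, the enzyme that conjugates bilirubin, was not in the table under that symbol, so the 10 tested genes do not cover that step. Abcc2 (MRP2), the canalicular pump for conjugated bilirubin, had counts of 21844, 29699.5, 17589 and 29533 in SHAM air and 7522, 10114, 7614 and 5429.8 in ADREX air. In SHAM ozone it had 18082, 11323, 16689.7 and 16920.3 and in ADREX ozone 6186, 3175, 6924 and 10878. No ADREX library reached a SHAM library in either exposure, a separation that 9.26% of all genes showed in air and 20.5% under ozone. The change was -1.69 in air (SE 0.31, adjusted p = 0.00667 by limma) and -1.32 under ozone (SE 0.31, adjusted p = 0.0118 by limma), the second missing the threshold when the 3 libraries with the highest neural sums were left out (0.0803). Slco1b2, a basolateral transporter that takes up organic anions such as bilirubin, changed by -1.31 in air (SE 0.24, adjusted p = 0.00584 by limma) and by -0.89 under ozone (SE 0.24, adjusted p = 0.0225 by limma). Under ozone it missed the threshold without SHAM ozone 19 or 20 or ADREX ozone 81 or 83 (adjusted p 0.0506 to 0.0669 by limma), with the neural sum as a covariate (0.0525), and when the 3 neural-rich libraries were left out together (0.0952). The hepatocyte marker sum was 154804 to 224300.0 RPM in SHAM air and 125198 to 164434 RPM for ADREX with air, and under ozone 148469 to 168897 RPM in SHAM and 104260.0 to 216229 RPM in ADREX; its part in the fall of these hepatocyte transporters was not tested. No gene of this list passed for ozone against air (limma, 1 of 10 in SHAM and 0 of 10 in ADREX at an unadjusted p under 0.05; edgeR and DESeq2 also 0).

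Of 20 heme enzymes and their partners, all tested, 2 rose with ozone in SHAM, where 1.58% of all genes passed: Por, the reductase that feeds electrons to P450 enzymes and heme oxygenase (log2 change 2.19, SE 0.27, adjusted p = 0.00116 by limma), and Cycs, cytochrome c (1.06, SE 0.18, adjusted p = 0.00941 by limma). Por counts were 1664, 1243, 935 and 805 in SHAM air, and 6654, 5499.9, 3072 and 6059.9 in SHAM ozone. In ADREX they were 2652, 1964, 1989.6 and 3661 with air and 2707, 2006, 3075 and 2447 with ozone. The ozone effect on Por differed between the surgeries by -2.17 (SE 0.39, adjusted p = 0.04 by limma), a call lost at adjusted p 0.0583 to 0.129 by limma without any of SHAM air 2 and 4, SHAM ozone 17, 18 and 20, ADREX air 65, 66 and 68 or ADREX ozone 82, 83 and 84. It was also lost with no filter on low values (adjusted p = 0.0502 by limma). In ADREX against SHAM, 2 of the 20 rose and 1 fell in air, and 1 rose and 6 fell under ozone, where 3.53% and 12.5% of all genes passed. In air these were Por (1.15), Cyb5a (0.86) and Cyp2c11 (-1.62), with adjusted p = 0.0285, 0.0359 and 0.0281 by limma. Each was lost without single libraries, at up to 0.105 for Por (SHAM air 2 or 4, ADREX air 65 or 68), 0.127 for Cyb5a (SHAM air 2 or 4, SHAM ozone 17, any ADREX air) and 0.09 for Cyp2c11 (SHAM air 1, 2 or 4, ADREX air 65, 66 or 68). A fit of only the 2 groups compared gave 0.0658, 0.0976 and 0.0801 in the same order (adjusted p by limma). With edgeR Cyb5a was at 0.0749 and Cyp2c11 at 0.0682, and with no filter on low values Cyb5a was at 0.0606 by limma. Under ozone Tdo2, a heme enzyme that opens tryptophan, fell by 1.99 (SE 0.30, adjusted p = 0.000846 by limma) and passed in all alternatives. In the same comparison Cyp3a2 was higher by 1.76, while Cyb5r3 was lower by 0.67 and Cycs by 0.80 (adjusted p = 0.00824, 0.0133 and 0.0111 by limma). These calls were lost when the 3 libraries with the highest neural sums were left out (0.0788, 0.0747 and 0.0662). Cyp2b2 (-1.37), Cyp3a9 (-1.51) and Por (-1.01) passed at adjusted p = 0.0289, 0.026 and 0.0244 by limma. They were lost without SHAM ozone 17, 19 or 20 or ADREX ozone 81 or 82 (Cyp2b2, up to 0.0858), SHAM ozone 19 or 20 or ADREX ozone 82 or 83 (Cyp3a9, up to 0.0842), and SHAM ozone 17 or 20 or ADREX ozone 82 (Por, up to 0.0835). Leaving out the 3 neural-rich libraries together gave 0.254 for Cyp2b2, 0.142 for Cyp3a9 and 0.214 for Por under ozone, 0.118 for the Por difference and 0.065 for Cyb5a in air (adjusted p by limma). With the neural sum as a covariate Cyp2b2 was at 0.0698, Por under ozone at 0.0688, Cyb5a in air at 0.0705 and Cyp2c11 in air at 0.0874.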

How the data were processed

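RNA of 16 rat liver libraries (4 a group) was sequenced on a NextSeq 500, per the labels' protocols. The submitters' processing notes name Partek, DESeq2 and the build rn6; the aligner, counting and versions and any use of strand in counting are not given in the sources used. The deposited values are a signal: read counts that the authors divided by 1 size factor per library. Whole reads were recovered (100% of values within 0.01 of a whole number), giving 8372891 to 14096246 reads a library, and 3 reads equal 0.213 to 0.358 RPM. RPM values set each library to 1000000 recovered reads.

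Genes with a mean of at least 14.7 were kept (12791), and log2(value + 1) was fitted with limma-trend 3.58.1 in R 4.3.3, with 4 group means over all libraries, two-sided, with Benjamini-Hochberg adjustment. The pseudocount understates changes of low genes. The edgeR 4.0.16 and DESeq2 1.42.0 tests on recovered reads (both as alternatives), other filters, scaling, weights and left-out libraries were tried. The fit was tested on simulated data. The members, lists and comparisons were chosen with earlier results of these data known. All 9 members are named, list genes where they passed in a planned comparison, and the 5 genes nearest to Alas1. Hmox1 and the averaged comparison were added after their values were seen.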

Additional observations from a re-analysis of the deposited data

Results flagged for a closer look

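In 52 groups of 4 libraries (the 9 genes, Hmox1, Abcc2, Slco1b2 and Por), 2 held a library far from its group by Dixon's criterion, where chance gives about 1 in 20. Uros was lowest in ADREX air 67, at 34.25 against 47.7 to 49.4 in the other 3 libraries. Hmox1 was highest in the same library, at 1587 against 446 to 506. The ozone effect on Por differed between the surgeries, at -2.166 (log2, ADREX minus SHAM, adjusted p = 0.04 by limma). That call was lost in 13 of 25 alternatives, at adjusted p up to 0.129 by limma. It also rests on the titles of the ADREX air libraries.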

How the results depend on the processing

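No paired analysis was possible because no library number occurs in more than 1 group. Under ozone, 2 of the 9 genes (Alad and Blvra) passed with array quality weights and 0 when the 3 libraries with the highest neural marker sums were left out, and 1 passed in the other 24 alternatives. In the other planned comparisons 0 passed in all alternatives. Of 1181 alternative values for the 9 genes, 33 had the opposite sign, from 11 results that did not pass, none beyond 0.42 in size, and the cause was not tested. For Alad in air the sign turned with array quality weights (-0.1648) and with 1 library left out (range -0.2064 to 0.2184). Left-out libraries turned it for Alad with ozone in ADREX (-0.09539 to 0.4372), for Alas1 in air (-0.8719 to 0.03751), under ozone (-0.03737 to 0.5765) and with ozone in ADREX (-0.6436 to 0.2659), where the neural covariate gave 0.09654 and the fit without the 3 libraries 0.2394. Blvra with ozone in ADREX ran from -0.02335 to 0.2749 and was -0.02491 without the 3 libraries. Blvrb under ozone ran from -0.1943 to 0.3064, and was -0.08434 with TMM, -0.0317 with edgeR, -0.3896 with the covariate and -0.4199 without the 3 libraries. Cpox with ozone in ADREX was 0.005154 with array weights. Fech in air ran from -0.179 to 0.03334 and was 0.02171 with the covariate, and with ozone in ADREX it ran from -0.03574 to 0.1766, with -0.008554 by DESeq2, -0.028 with TMM and -0.03496 by edgeR. Ppox under ozone ran from -0.002491 to 0.1683, with -0.00983 by DESeq2, -0.03157 with TMM and -0.03705 by edgeR.

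TMM moved the median of all genes under ozone from 0.114 to 0.0112, and the share of passing genes that rose there from 48.2% to 32.2%, with ozone in ADREX from 31.2% to 18.2% and for the difference from 21.4% to 5%. Counts of passing genes depended on the setting. In the order ozone in SHAM, ozone in ADREX, difference, air and under ozone they were 202, 16, 14, 451 and 1601. They were 1133, 330, 182, 1456 and 3414 with array weights, 540, 570, 248, 835 and 2193 by DESeq2, 176, 49, 24, 378 and 1585 by edgeR, 178, 20, 22, 195 and 1096 with the neural covariate, and 107, 1, 15, 413 and 479 without the 3 libraries. With 1 library left out they ran from 38 (SHAM ozone 20) to 658 (SHAM air 3), 0 to 50 (ADREX air 67), 3 to 33 (SHAM air 3), 194 (ADREX air 66) to 1004 (SHAM air 3), and 787 (SHAM ozone 20) to 1848 (SHAM air 3).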
